A study of Homo sapiens with 3 samples.

Results

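The cyclic nucleotide phosphodiesterase (PDE) genes PDE1A, PDE1C, PDE3A, PDE4A, PDE4B, PDE4D, PDE7A, PDE7B, PDE8A and PDE10A were followed through 3 single-cell RNA libraries of a human fibroblast to neuron induction series. They are a listed set taken by gene symbol, and all 10 were found among the 32732 genes that the 3 feature tables share. Those tables hold 21 genes for catalytic PDE subunits, and the other 11 served as the family background. Each group was 1 library of WT genotype. At day 0 the cells were BJ, a long-established line of human fibroblasts. At days 3 and 5 they were FiN cells made from BJ, which the labels call induced neuron cells. All 3 carry the label reprogramming as their treatment. Per the labels' protocols the cells stood in an induction medium and then a maturation medium, both with 10 µM forskolin, a plant compound that switches on adenylyl cyclases and so drives cAMP synthesis. Forskolin was taken away on day 5. Whether the day 0 cells had met forskolin, whether the day 5 cells were taken before or after its removal, and how many cultures went into a library are not given in the sources used here.

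PDEs end cyclic nucleotide signals by cutting cAMP or cGMP to the plain nucleotide, and so set how far and how long a signal made by the cyclases reaches protein kinase A, EPAC and protein kinase G. The families differ in substrate and control. The PDE4, PDE7 and PDE8 enzymes cut cAMP, PDE5A and PDE9A cut cGMP, and PDE1, PDE3 and PDE10A cut both, with PDE1 switched on by calcium and calmodulin and PDE3 held back by cGMP. In the brain PDE10A is best known from the medium spiny neurons of the striatum, while PDE4B and PDE4D are widely expressed and are targets of rolipram-type inhibitors.

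After filtering, 16773, 11454 and 9219 cells remained at days 0, 3 and 5, with 246546451, 18743865 and 51708522 UMIs and medians of 14039, 1324 and 4374 UMIs per cell. Per the labels, day 0 and day 3 came from suspensions of nuclei and day 5 from about 10000 dissociated cells, so day 5 and its stated preparation cannot be told apart. The day 5 file also lists 36601 genes, against 33538 at days 0 and 3, so day 5 and its gene list cannot be told apart either. The labels also name a chromatin accessibility kit for days 0 and 3, although the files hold gene counts, so how the RNA of these libraries was prepared is not settled by the labels. Days 0 and 3 also differed in make-up, with 6.45% and 0.744% mitochondrial, 16.0% and 3.85% ribosomal protein and 3.14% and 21.6% MALAT1 UMIs (day 5: 4.94%, 1.99% and 7.24%). Whether these 2 libraries share a preparation is therefore in doubt, and its part in the day 3 over day 0 ratios was not tested. Of 12 fibroblast markers, 12, 12 and 4 reached 10 CPM at days 0, 3 and 5, and of 15 neuron markers 3, 3 and 15 did. At day 3 the neuron markers DCX, STMN2, ELAVL4, NEFL and NEFM had 0 UMIs, so the neuron label of that library had little support from these markers. The libraries shared 63 (days 0 and 3), 27 (days 3 and 5) and 47 (days 0 and 5) cell barcodes.

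Levels are CPM, the usual library-scaled unit, here with the sum over the shared genes as the library's total, and the parentheses hold exact Poisson 95% intervals. As each group had 1 library, differences could be neither tested nor checked against replicates, the intervals take in counting error alone, and what is compared is libraries. Higher or lower here means a CPM ratio of 2 or more, with 10 CPM or more in the larger library and intervals that lie apart. UMIs were counted per gene, so splice forms and start sites of 1 gene could not be told apart, and isoform use here means the use of the separate PDE genes.

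The 21 PDE genes together took a larger share of UMIs at each later day. Their summed level was 317 CPM (315 to 319) at day 0, 950 (936 to 964) at day 3 and 8316 (8291 to 8341) at day 5, where they took 0.832% of all UMIs. The 10 members supplied 37.2%, 82.6% and 92.5% of these family UMIs. At day 3 against day 0, 8 members were higher and 0 lower, where 37.6% of the 10431 genes at 10 CPM or more were higher and 19.1% lower. At day 5 against day 3, 7 members were higher and 2 lower, where 36.5% of 12623 genes were higher and 28.7% lower. At day 5 against day 0, 8 members were higher and 1 lower, where 49.1% of 12084 genes were higher and 26.0% lower. Most members are long genes. Of genes with 100 to 200, 200 to 500 and over 500 kb of intron, 45.9%, 49.9% and 47.6% were higher at day 3 against day 0. These shares were 65.2%, 81.6% and 94.1% at day 5 against day 3, and 78.4%, 88.5% and 97.1% at day 5 against day 0. The median log2 ratio of the members was 3.18, 2.08 and 5.09 in these comparisons, and that of all genes with at least 3 UMIs in 1 of the 2 libraries was 1.36, 0.08 and 1.97. From day 0 to day 5 the log2 ratio was largest for PDE1A (13.20), PDE3A (11.42) and PDE10A (9.13), followed by PDE4D (7.17) and PDE4B (6.12). It was 4.07 for PDE1C, 3.68 for PDE7A, 3.08 for PDE8A, 0.25 for PDE7B and -3.38 for PDE4A, so only PDE7B ended near its starting level. The PDE1A value rests on 7 UMIs at day 0. Over the settings tried it ranged from 10.20 to 13.95, and that of PDE3A from 9.02 to 12.07, so the order of these 2 is not settled. With trimmed mean scaling (TMM), PDE4A was called lower at day 3 than day 0 (log2 -1.70) and PDE8A was no longer called higher (0.65). With totals over genes of 100 kb of intron or more, PDE7A and PDE8A turned to the lower side at day 5 against day 3, both at a log2 ratio of -0.53, and PDE8A lost its call at day 5 against day 0 (0.68), which left 7 members higher there. The background turns as well. With TMM 1519 genes were higher and 4863 lower at day 3 than at day 0, in place of 3927 and 1996, while 7 members were higher and 1 lower.

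**Figure D1:**
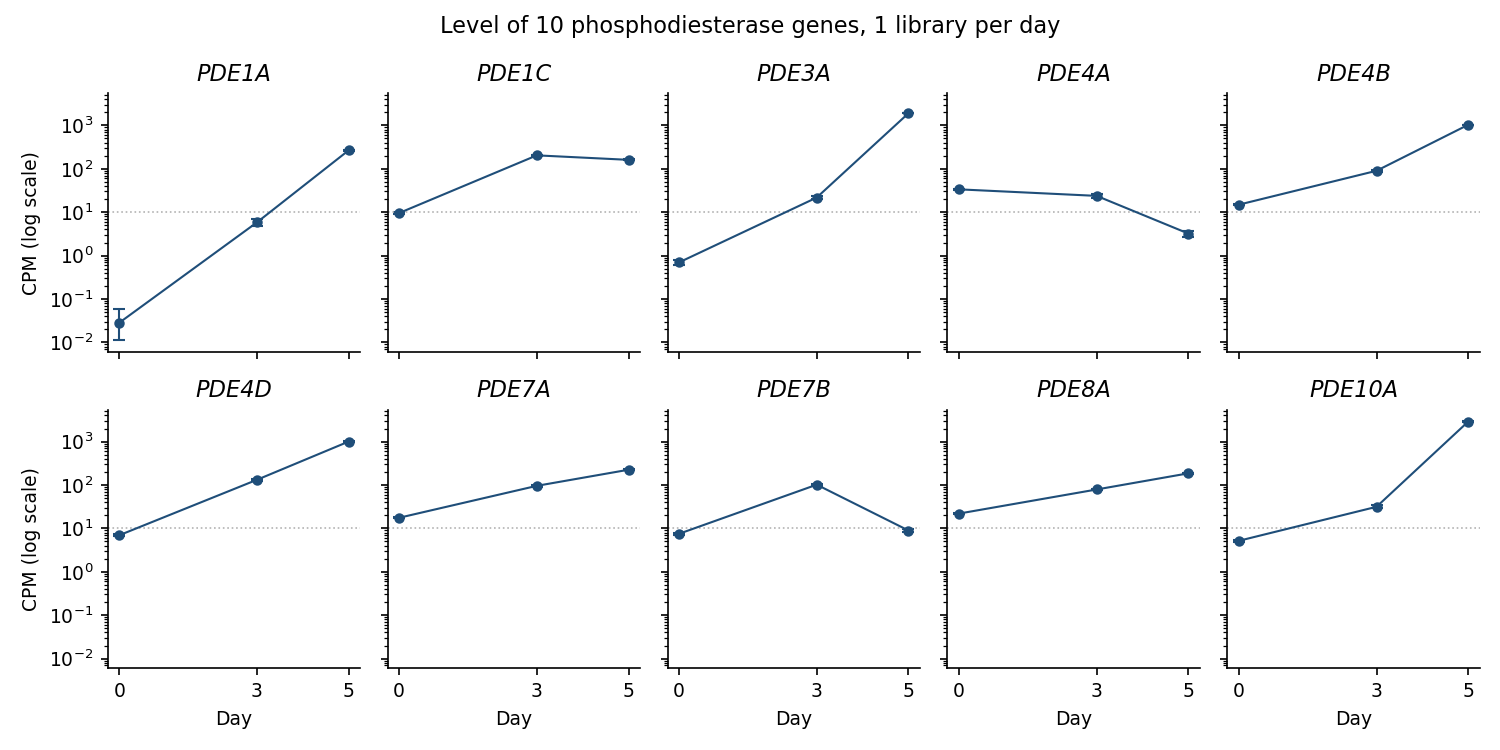
Level of each of the 10 members (CPM, log scale) by day, 1 point per library, with exact Poisson 95% intervals and a dotted line at 10 CPM. PDE10A and PDE3A reach the 2 highest levels at day 5 (2899.6 and 1906 CPM), PDE7B and PDE1C are highest at day 3, and PDE4A is lowest at day 5 (3.22 CPM); with totals over long-intron genes PDE7A and PDE8A are lower, not higher, at day 5 than at day 3.

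Among the enzymes that cut both nucleotides, PDE10A went from rank 10 of the 21 genes by UMIs at day 0 to rank 1 at day 5. PDE10A (ENSG00000112541, chromosome 6, 165327287 to 165988078, minus strand) stood at 5.18 CPM (4.90 to 5.47) at day 0, 31.4 (28.9 to 34.1) at day 3 and 2899.6 (2885 to 2914) at day 5. Each library's interval lay apart from the others, and the day 5 library stood far above both. The ratio was 6.07 (5.50 to 6.70) at day 3 over day 0 and 92.3 (85.1 to 100.2) at day 5 over day 3. A non-coding gene on the opposite strand within PDE10A, AL590302.2, moved with it at 0, 2.03 and 49.4 CPM. Since strand use in counting is not given, reads of such overlapping pairs cannot be told apart.

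PDE3A, which cuts cAMP and is inhibited by cGMP, followed the same order of libraries. It lies on chromosome 12, 20369245 to 20684381, plus strand, and stood at 0.698 CPM (0.597 to 0.810), 21.8 (19.7 to 24.0) and 1906 (1894 to 1918) at days 0, 3 and 5. The day 3 level was 31.2-fold (26.0 to 37.5) that of day 0, and the day 5 level 87.6-fold (79.5 to 96.8) that of day 3. Its paralog PDE3B, no member of the list, stood at 0.771, 18.5 and 191 CPM, so the paralogs were near each other at days 0 and 3 and far apart at day 5.

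The calcium-activated pair PDE1A and PDE1C parted after day 3. PDE1A (chromosome 2, 182140036 to 182523192, minus strand) had 7 UMIs at day 0 (0.0284 CPM, 0.0114 to 0.0585), 109 at day 3 (5.83 CPM, 4.78 to 7.03) and 13595 at day 5 (267 CPM, 263 to 271). It was therefore under 10 CPM until day 5, and its day 3 difference was not called although the intervals lay apart. PDE1C (chromosome 7, 31751179 to 32299329, minus strand) stood at 9.58 CPM (9.20 to 9.97), 204 (198 to 211) and 161 (157 to 164). PDE1C thus reached most of its gain by day 3, a 21.3-fold difference (20.2 to 22.4), and its day 5 level was 0.788 (0.758 to 0.819) of that of day 3, too small a difference to be called. It was called lower with totals over long-intron genes (log2 -2.11) and when the day 5 cells were limited to clusters with neuron markers (-1.75). In the day 5 cells of the other clusters, 69.7% of cells, PDE1C stood at 217 CPM, slightly above its day 3 level. The highest log2 ratio over the settings tried was 0.09. The third gene of that family, PDE1B, reached 10.5 CPM only at day 5, from 2 UMIs at day 0 and 1 UMI at day 3.

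The cAMP-specific PDE4 genes, the main rolipram-sensitive cAMP phosphodiesterases, moved in opposite directions. PDE4D (chromosome 5, 58969038 to 60522120, minus strand) stood at 6.95 CPM (6.63 to 7.29) at day 0, 132 (127 to 137) at day 3 and 1002 (993 to 1011) at day 5. PDE4B (chromosome 1, 65792514 to 66374579, plus strand) stood at 14.9 (14.4 to 15.4), 90.0 (85.8 to 94.4) and 1035 CPM (1026 to 1044). The PDE4D level was 18.9-fold (17.8 to 20.2) higher at day 3 than at day 0 and 7.61-fold (7.31 to 7.93) higher at day 5 than at day 3, so its larger step came first. The log2 ratio of that first step, 4.24, fell to 3.05 at its lowest over the settings tried. This was near the 2.93 of the second step in the main setting. PDE4B had ratios of 6.03 (5.69 to 6.39) and 11.5 (10.96 to 12.1), with the larger step second, an order that turned with totals over long-intron genes (log2 1.96 and then 1.76). The gene PART1, which overlaps PDE4D on the other strand, stood at 0.154, 43.2 and 3.38 CPM, an order unlike that of PDE4D. PDE4C stayed under 10 CPM in all 3 libraries, with a highest level of 1.43 CPM.

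PDE4A was the member with the highest day 0 level, by UMIs and per gene span, and the only one called lower at day 5 than at day 0, joined by PDE7B with totals over long-intron genes. It lies on chromosome 19, 10416773 to 10469631, plus strand, and stood at 33.6 CPM (32.9 to 34.4) at day 0, 23.8 (21.6 to 26.1) at day 3 and 3.22 (2.75 to 3.75) at day 5. The day 5 level was 0.135 (0.113 to 0.162) of that of day 3 and 0.0958 (0.0816 to 0.112) of that of day 0. The neighbouring gene CDC37 overlaps PDE4A on the other strand and stood at 191, 171 and 45.7 CPM.

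The high-affinity cAMP enzymes of the PDE7 family also parted. PDE7B (chromosome 6, 135851696 to 136195574, plus strand) stood at 7.52 CPM (7.18 to 7.87) at day 0, 102 (97.1 to 106) at day 3 and 8.94 (8.13 to 9.80) at day 5. It was 13.5-fold (12.7 to 14.4) higher at day 3 than at day 0 and at 0.0879 (0.0792 to 0.0974) of its day 3 level at day 5, which put it near its starting level (ratio 1.19, 1.07 to 1.32, day 5 over day 0). With totals over long-intron genes that last log2 ratio was -2.15 and not 0.25. PDE7A (chromosome 8, 65717510 to 65842322, minus strand) stood at 17.6 (17.1 to 18.1), 95.6 (91.2 to 100.2) and 225 CPM (221 to 229), with ratios of 5.44 (5.15 to 5.75) and 2.35 (2.24 to 2.47). An antisense gene in PDE7B, AL138828.1, shared its day 3 maximum at 1.33, 94.9 and 5.24 CPM, and MTFR1, which overlaps PDE7A on the other strand, stood at 19.4, 13.7 and 95.1 CPM. How much of either pair belongs to the partner was not tested.

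PDE8A, a cAMP enzyme of very high affinity that resists the general inhibitor IBMX, showed the smallest first step of the members called higher in both steps. It lies on chromosome 15, 84980440 to 85139145, plus strand, and stood at 21.9 CPM (21.4 to 22.5), 78.8 (74.8 to 82.9) and 186 (182 to 189), with ratios of 3.59 (3.39 to 3.803) and 2.36 (2.23 to 2.49). The day 5 over day 3 ratios of PDE8A and PDE7A were nearly the same, and both turned to the lower side under long-intron totals, as given above. With the day 5 cells limited to clusters with neuron markers PDE8A was no longer called at day 5 against day 3 (log2 0.39). Its paralog PDE8B went from 0.138 CPM at day 0 to 7.48 at day 3 and 192 at day 5, so the pair stood close together at day 5.

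PDE4A and PDE7B were the members called lower at day 5 than at day 3, joined by PDE1C with totals over long-intron genes. They were also the only 2 of the members matched whose promoter windows held the full cAMP response element TGACGTCA, the palindrome bound by CREB-family factors. RefSeq windows (GRCh38.p14) of 300 bases, 250 before to 50 after each annotated start, were searched on both strands. Of the 10 members 9 had windows, 39 in all, and PDE7A had none. The element was in 2 of the 39 windows and in 2 of 9 genes, against 1.85% of all 35116 windows and 2.25% of 27305 genes. The members had more windows per gene than all genes, which gives each gene more places to match. Over the catalytic PDE genes with windows it was in 2 of 62 windows and 2 of 18 genes. The shorter TGACG, which lies within the full element, was in 3 of 39 member windows (PDE4A, PDE7B and PDE4D) against 24.6% of all windows, and in 3 of 9 genes (33.3%) against 28.4% of all genes. These are matches of letters, no binding was measured, and a link between the element and the lower calls was not tested. PDE4A has 4 further windows without the element, and which start was used at each day is not known. Both stretches are printed because they carry these matches, on the plus strand with the element in capitals, PDE4A from chr19:10416710-10416792 with the element beginning 3 bases before the start at 10416773, and PDE7B from chr6:135851486-135851613 with the element beginning 155 bases before the start at 135851701.
PDE4A: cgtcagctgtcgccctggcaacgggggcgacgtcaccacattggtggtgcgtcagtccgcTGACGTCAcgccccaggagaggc
PDE7B: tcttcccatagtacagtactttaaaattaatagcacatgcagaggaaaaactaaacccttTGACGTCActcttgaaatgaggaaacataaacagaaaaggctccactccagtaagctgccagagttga

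Within a library, shares of the family's UMIs do not depend on how libraries are scaled. At day 0 PDE5A, the cGMP-specific enzyme that sildenafil blocks and no member of the list, held 59.2% of family UMIs (exact binomial interval 58.9 to 59.6), and PDE4A came second at 10.6% (10.4 to 10.8). At day 3 PDE1C led with 21.5% (20.9 to 22.1), followed by PDE4D at 13.9% (13.4 to 14.4), PDE5A at 13.3% (12.8 to 13.8) and PDE7B at 10.7% (10.3 to 11.2). At day 5 PDE10A held 34.9% (34.7 to 35.0), PDE3A 22.9% (22.8 to 23.0), PDE4B 12.4% (12.3 to 12.5) and PDE4D 12.05% (11.95 to 12.15). The leading gene thus differed in every library. By substrate, cGMP-specific enzymes held 62.0%, 14.2% and 2.69% of family UMIs at days 0, 3 and 5. The cAMP-specific enzymes held 32.4%, 55.8% and 31.9%, and the enzymes of both nucleotides 5.58%, 29.998% and 65.4%. Per gene span the cGMP-specific enzymes held 59.4%, 26.4% and 9.07%, the cAMP-specific 39.1%, 58.5% and 30.6% and those of both 1.42%, 15.1% and 60.4%, so the day 3 order of the cGMP-specific and dual enzymes turned with the scale. PDE5A stood at 188, 126 and 90.5 CPM, so its loss of share went with a level at day 5 that was 0.482 (0.467 to 0.497) of that of day 0.

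Comparing PDE genes with each other needs their lengths, since a longer gene can give more UMIs where introns are counted. After division by gene span, PDE5A led at day 0 (56.4% of the length-scaled family sum) and at day 3 (23.8%), and PDE3A led at day 5 (28.9%). PDE7A came second at day 3 on this scale, at 19.5%, and PDE10A was second at day 5, at 20.97%. PDE4D, the longest of the family, held 3.08% at day 5 on this scale against 12.05% of UMIs. PDE4A held 25.7%, 11.5% and 0.291% of the length-scaled sum at days 0, 3 and 5. The day 3 leader therefore depends on the scale, and the order of PDE10A and PDE3A at day 5 does too.

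**Figure D2:**
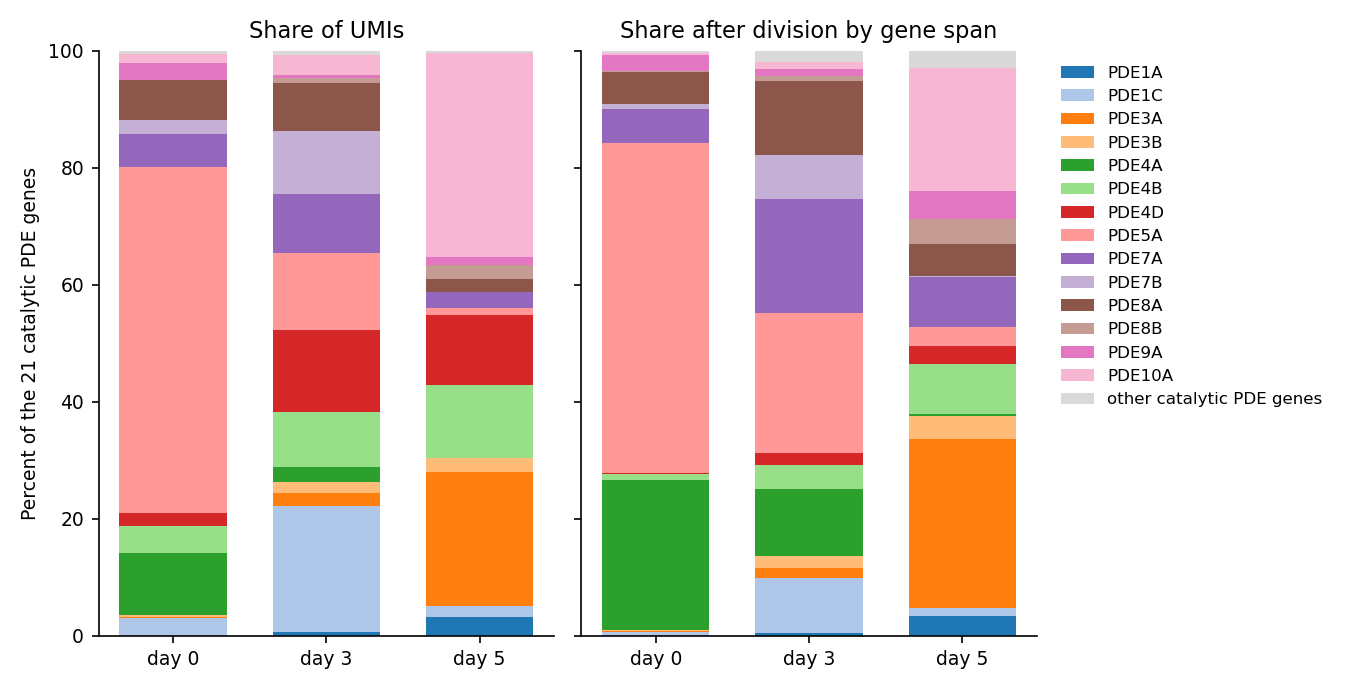
Percent of the 21 catalytic PDE genes held by each gene at days 0, 3 and 5, as UMIs (left) and after division by gene span (right), 1 library per bar, with genes that stay under 2% of UMIs joined in grey. PDE5A fills 59.2% of the day 0 bar, and PDE10A and PDE3A hold 34.9% and 22.9% of the day 5 UMIs but 20.97% and 28.9% per span.

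Intron length matters for reading the day 5 library, because across all genes the ratio of day 5 to day 3 went up with total intron length. The median log2 ratio of genes at 10 CPM or more was -1.15 with under 20 kb of intron, 0.11 from 20 to 50 kb, 0.87 from 50 to 100 kb, 1.66 from 100 to 200 kb, 3.09 from 200 to 500 kb and 6.004 over 500 kb. A gene entered with 10 CPM in either library, so genes low at day 3 and high at day 5 were let in. Over 500 kb, 124 genes passed at day 3 over day 0 and 307 at day 5 over day 3, so many passed only through day 5. This lifts the medians of the long classes, and by how much was not tested. Over 12608 genes, which share libraries and are not replicates, Spearman's rho was 0.58, and for day 3 over day 0 it was 0.13 over 10420 genes. Genes with over 500 kb held 0.392%, 0.804% and 11.1% of UMIs at days 0, 3 and 5. Most of the members are long, from 46.2 kb of intron in PDE4A, 117 in PDE7A and 151 in PDE8A to 307 in PDE3A, 338 in PDE7B, 377 in PDE1A, 534 in PDE1C, 573 in PDE4B, 639 in PDE10A and 1537 in PDE4D.

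Set beside genes of like intron length, most members stood below the median at day 5. PDE4D and PDE4B, each far higher at day 5 than at day 3, stood at log2 ratios of 2.93 and 3.52, which were 3.08 and 2.48 below the median of the class over 500 kb, and 254 and 237 of its 307 genes stood above them. PDE10A stood 0.52 above that median with 141 of the 307 genes above it, so its large ratio was near the middle of its class. PDE3A stood 3.37 above the median of the 200 to 500 kb class (209 of 1012 genes above it) and PDE1A 2.43 above it (267 of 1012). These 3 were the only members above their class median. PDE1A, at 5.83 CPM at day 3, entered only through day 5, where it was high, so its place is partly set by entry. The number of members above their class median stayed 3 under the other cell filters and scalings tried. A change of library totals alone shifts members and class medians alike, so those scalings could hardly have changed it. The number was 2 when the day 5 cells were limited to clusters with neuron markers. PDE7A and PDE8A stood 0.43 and 0.42 below the 100 to 200 kb median, with 954 of 1577 genes above each.

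PDE1C and PDE7B departed most from their intron classes. In the class over 500 kb, 289 of 307 genes were called higher at day 5 than at day 3 and 6 lower, while PDE1C stood at a log2 ratio of -0.34, with 296 genes above it. In the 200 to 500 kb class 826 of 1012 genes were higher and 64 lower, and PDE7B at -3.51 was among those 64, with 997 genes above it. PDE4A, with less intron, stood at -2.88, which was 2.99 below the 20 to 50 kb median, with 2899 of 3032 genes above it. These 3 members were thus low at day 5 also against genes of their own length, in classes that take in genes high only at day 5. PDE7B and PDE4A themselves passed 10 CPM only through day 3, where they were high, so their low places are partly set by entry.

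Between days 3 and 0 intron length went with the ratio far less, and there most members that passed 10 CPM stood high in their classes. PDE3A, PDE1C, PDE4D, PDE7B and PDE10A passed that limit only through day 3, where they were high, so their high places are partly set by entry. PDE1A passed it in neither library and was left out. PDE3A was 3.97 above its class median on the log2 scale (24 of 603 genes above it), PDE1C 3.49 (15 of 124), PDE4D 3.32 (16 of 124) and PDE7B 2.77 (45 of 603). PDE10A and PDE4B were 1.68 and 1.67 above (31 of 124 genes above each), PDE7A 1.56 and PDE8A 0.96. PDE4A alone of the 9 members at 10 CPM was below its class median, by 1.00. The median gene with 10 or more UMIs in each library had a log2 ratio of 0.81 at day 3 over day 0, -0.22 at day 5 over day 3 and 0.71 at day 5 over day 0. Relative to it, day 3 over day 0 stood at 4.16 for PDE3A, 3.61 for PDE1C, 3.44 for PDE4D and 1.04 for PDE8A. At day 5 over day 0 the class medians were 4.14 from 200 to 500 kb and 7.93 over 500 kb. There PDE1A, PDE3A, PDE10A, PDE7A and PDE8A stood 9.06, 7.28, 1.20, 1.08 and 0.48 above their class medians. PDE4D, PDE4B, PDE1C and PDE4A stood 0.76, 1.81, 3.86 and 4.13 below theirs. In that comparison PDE1A, PDE3A, PDE10A, PDE4D and PDE1C passed 10 CPM only through day 5, and PDE4A only through day 0. Their places are partly set by entry too.

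**Figure D3:**
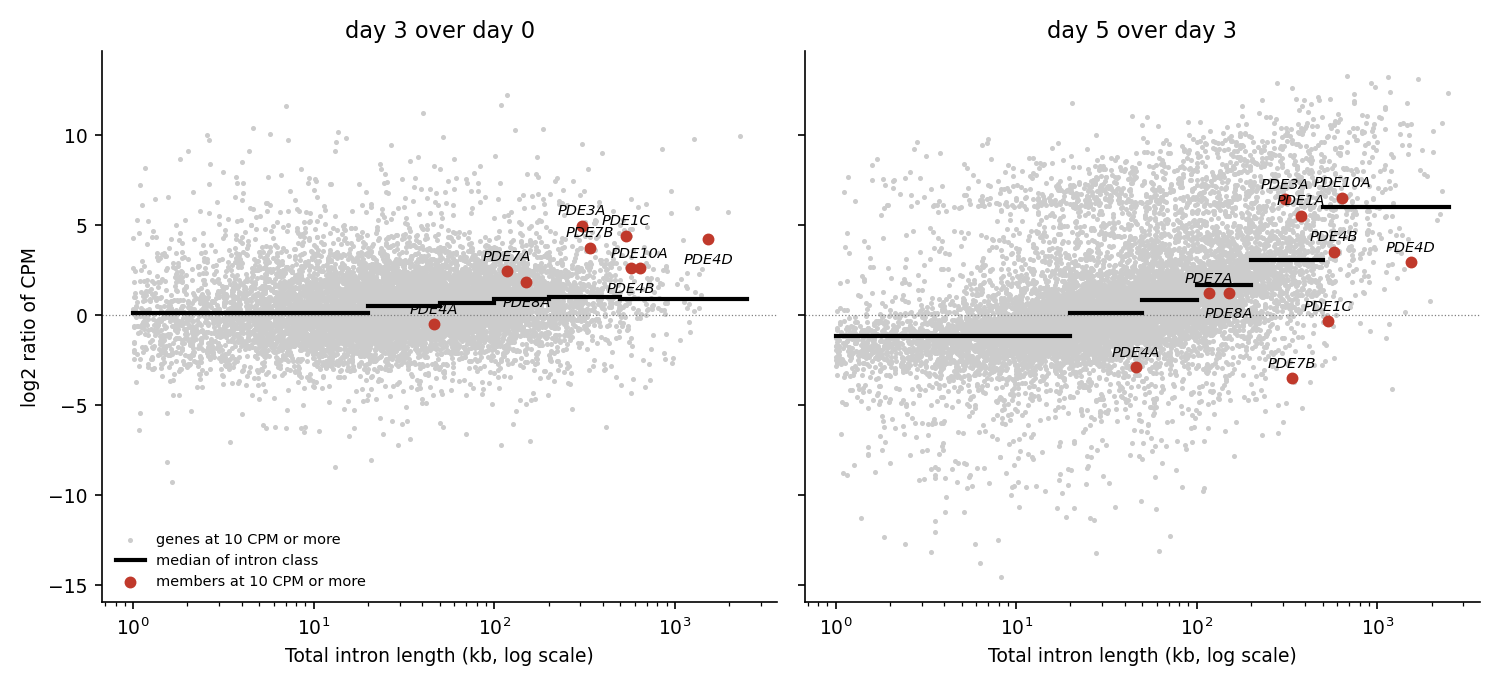
Log2 ratio of CPM against total intron length (kb, log scale) for genes at 10 CPM or more in either library with at least 1 kb of intron (grey), with class medians (black bars) and members (red), day 3 over day 0 on the left and day 5 over day 3 on the right. At day 5 over day 3 the medians climb from -1.15 to 6.004, and PDE1C (-0.34) and PDE7B (-3.51) lie far below genes of like length; PDE7A and PDE8A, drawn above 0, are at -0.53 with totals over long-intron genes.

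The share of cells with a UMI followed the levels once cells were thinned to 1000 UMIs, which left out 2391, 3013 and 0 shallower cells at days 0, 3 and 5. PDE10A was seen in 0.466% of cells at day 0, 3.00% at day 3 and 84.0% (83.3 to 84.8) at day 5, and without thinning in 6.87%, 4.82% and 97.4%. PDE3A was seen in 0.0487%, 1.99% and 70.5% of thinned cells (0.996%, 3.32% and 91.9% unthinned). PDE4D was seen in 0.466%, 12.2% and 50.9% (8.59%, 17.7% and 85.2% unthinned), and PDE4B in 1.05%, 8.17% and 50.6% (16.2%, 12.5% and 83.6% unthinned). For PDE4B and PDE10A the unthinned shares put day 3 below day 0, against their CPM, so no order was read from them. PDE1C went from 0.688% to 18.1% and then 11.2% of thinned cells, and PDE7B from 0.494% to 9.64% and then 0.770% (10.2%, 24.5% and 30.4%, and 9.19%, 14.1% and 3.20% unthinned). PDE4A was seen in 2.56%, 2.33% and 0.293% (28.8%, 3.73% and 1.64% unthinned). Thinned cells with UMIs of 3 or more of the 21 PDE genes made up 0.0904%, 4.62% and 78.5% at days 0, 3 and 5, and cells with 0 made up 78.5%, 40.4% and 1.37%.

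Free RNA could give UMIs in day 5 droplets without the gene's own cell. The day 5 cells were therefore set beside the 50562 day 5 barcodes of at least 500 and under 1000 UMIs, both thinned to 500 UMIs. PDE10A was seen in 66.8% of cells (65.8 to 67.7) and 24.5% of the low barcodes (24.1 to 24.8), PDE3A in 52.3% and 21.8%, PDE4B in 33.0% and 12.6%, and PDE4D in 33.2% and 11.6%. Before thinning the median depths were 4374 and 753 UMIs. The low barcodes differed from the cells in make-up too, since TUBB3, a neuron marker, was seen in 33.2% of them and 11.02% of cells, and whether they hold free RNA alone was not tested. PDE1A was seen in 9.86% and 2.88%, PDE7A in 9.83% and 3.83%, PDE8A in 7.84% and 1.72%, PDE1C in 6.28% and 1.78%, and PDE7B in 0.401% and 0.0515%. All these shares were higher in cells than in low barcodes. PDE4A was not, at 0.108% (0.0520 to 0.199) and 0.141% (0.110 to 0.178), so over the whole day 5 library its share of cells did not stand above that of the low barcodes. Its 164 UMIs were unevenly spread over the clusters, as given with them. In barcodes of 1 to under 100 UMIs the levels of most members were higher than in these, at 1070.4 against 600.2 CPM for PDE10A, 787 against 516 for PDE3A, 414 against 287 for PDE4B and 379 against 263 for PDE4D, and still below the day 5 cells. Shares of barcodes with a UMI were not computed in that range. Subtracting the profile of the barcodes of 500 to under 1000 UMIs at an estimated share of 17.2% changed none of the 30 member calls. The members called higher at day 5 were lower in that profile than in the cells, so the subtraction could not take a higher call away.

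**Figure D4:**
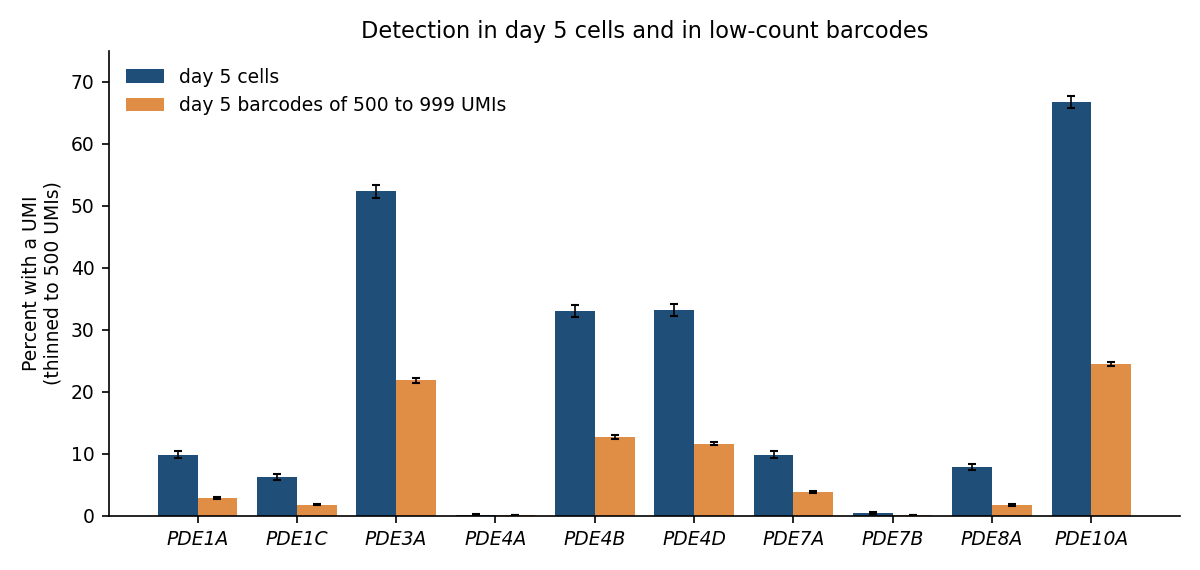
Percent of day 5 cells (blue) and of day 5 barcodes of 500 to under 1000 UMIs (orange) with a UMI of each member after thinning to 500 UMIs, with exact binomial 95% intervals. PDE10A is in 66.8% of cells and 24.5% of low barcodes, and PDE4A is near 0 in both (0.108% and 0.141%).

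Clusters, made in each library without the PDE genes, are called by number, and their levels are descriptions. At day 0 PDE5A led in each of the 10 clusters. Clusters 2, 3 and 7, with median depths of 994, 2600 and 1127 UMIs and RAB13 as their leading gene, held 115, 90.0 and 96.7 CPM of summed PDE genes, against 261 to 415 in the other 7. In cluster 3, PDE4B stood at 0.713 CPM (0.262 to 1.55) and PDE7A at 1.43 (0.737 to 2.49), against library levels of 14.9 and 17.6. The leading day 0 PDE1C level, 30.7 CPM (26.3 to 35.7), was in cluster 10, led by STC2.

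At day 3 the 4 clusters were more alike, with cluster 2 apart. Cluster 2, led by RORB and PI15, took 20.8% of the cells, whose median depth was 991 UMIs. There PDE4D led the family at 161 CPM (147 to 176), and PDE1C stood at 123 (110 to 136) against 166 to 235 in the other 3 clusters. PDE7B stood at 55.2 (47.1 to 64.3) against 97.7 to 112, and PDE8A at 46.9 (39.4 to 55.3) against 81.3 to 103. PDE1A went the other way, at 21.8 CPM (16.8 to 27.7) against 2.56 to 4.86, and 65 of its 109 day 3 UMIs came from that cluster.

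At day 5 clusters 5, 7, 8, 9, 10 and 11 had at least 3 of the 15 neuron markers 2-fold above the other cells, and together they held 30.3% of cells. Their summed PDE level was 5960 CPM against 9636 in the other 7 clusters, a ratio of 0.619. MAP2, itself one of the neuron markers by which these clusters were picked, stood at 1488 against 664. PDE10A stood at 1896 against 3462 CPM, PDE3A at 1231 against 2285, PDE1A at 90.2 against 366 and PDE1C at 60.8 against 217. PDE4D and PDE4B were closer, at 916 against 1050 and 814 against 1159. PDE7A and PDE4A were higher in the clusters with neuron markers, at 284 against 192 and 7.39 against 0.888 CPM, and PDE8A and PDE7B lower, at 103 against 232 and 3.23 against 12.1. The 2 sets of cells had median depths of 4592 and 4197 UMIs and 50.1% and 44.6% of their UMIs on genes of 100 kb of intron or more, and the part of either in these differences was not tested.

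The lowest summed PDE levels of day 5 were in clusters 7, 9 and 11, which had 9 or 10 neuron markers, at 4116, 2881 and 2736 CPM. In cluster 7, whose leading genes include VWDE and SLC17A6, PDE4B and not PDE10A led the family, with 23.6% of PDE UMIs against 23.1%. PDE3A led in clusters 8 and 13, with 36.0% and 38.0%, and PDE10A in the other 10. Over the 13 clusters PDE10A ranged from 649 CPM in cluster 9 to 4034 in cluster 4, PDE3A from 312 in cluster 11 to 4138 in cluster 13, PDE4D from 320 in cluster 12 to 1403 in cluster 1, PDE4B from 393 in cluster 11 to 2344 in cluster 6 and PDE7A from 112 in cluster 1 to 330 in cluster 8. PDE1C was concentrated in clusters 1 and 4, at 410 and 376 CPM, against 18.1 to 93.0 in the other 11. PDE4A was highest in cluster 10, led by CNTN5, at 16.5 CPM (12.7 to 21.2), with 63 of its 164 day 5 UMIs. That interval lay above the 2.77 CPM of the low barcodes, although the share of all day 5 cells with a PDE4A UMI did not exceed theirs. Within the clusters with neuron markers PDE4D held 15.4% of PDE UMIs, and in the others 10.9%.

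**Figure D5:**
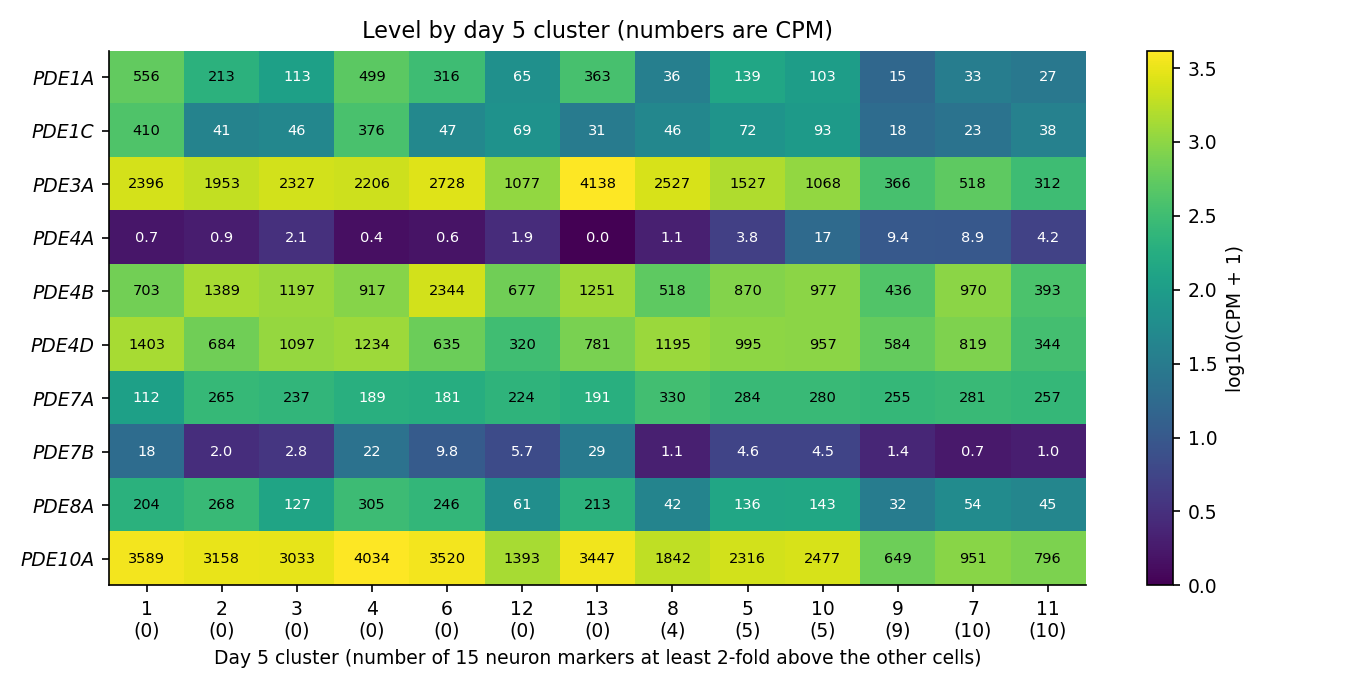
Level of each member in the 13 day 5 clusters, ordered by how many of 15 neuron markers stood at least 2-fold above the other cells (in brackets), with colour as log10(CPM + 1) and the CPM printed in each square. The clusters at the right, with 9 or 10 markers, hold 649 to 951 CPM of PDE10A, and over all 13 clusters PDE7A ranges from 112 to 330.

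Over all 27 clusters, PDE3A had the pattern most like that of PDE10A among 12998 genes at 10 CPM or more in 1 library, with a Pearson r of 0.99 on log2(CPM + 1), followed by ANKRD6 and KCNT2, each also at 0.99. The points share 3 libraries. Within the 13 day 5 clusters, which share 1 library, r was 0.91 for PDE3A, 0.86 for ANKRD6 and 0.73 for KCNT2.

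The genes that make cyclic nucleotides and answer to them did not all move one way beside the PDEs. Their calls use library totals alone and were not repeated with other scalings. With TMM the split over all genes at day 3 over day 0 turned, to 1519 higher and 4863 lower. The counts that follow are over list members at 10 CPM or more in 1 of the 2 libraries, and stand beside the shares of all such genes, 37.6% higher and 19.1% lower at day 3 over day 0 and 36.5% and 28.7% at day 5 over day 3. Of 10 adenylyl cyclases 3 reached that level at day 3 over day 0, with 2 higher and 1 lower, and 6 at day 5 over day 3, with 4 higher and 1 lower. ADCY2 stood at 0.0730, 0.962 and 497 CPM, ADCY6 at 17.8, 102 and 17.6, ADCY9 at 18.3, 8.55 and 76.2 and ADCY3 at 12.3, 44.4 and 37.8. ADCY6 thus shared the day 3 maximum of PDE7B, and ADCY2 the late gain of PDE10A. Of 6 guanylyl cyclases 2 reached it at day 3 over day 0, both higher, and 3 at day 5 over day 3, with 1 higher and 2 lower. GUCY1A2 stood at 0.114, 0.962 and 165 CPM, GUCY1B1 at 1.55, 19.3 and 7.80 and the natriuretic peptide receptor NPR2 at 10.3, 23.1 and 5.81.

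Of 8 genes of protein kinase A and EPAC, 1 was higher and 3 lower of 5 at that level at day 3 over day 0, and 3 higher and 2 lower of 7 at day 5 over day 3. The regulatory subunit PRKAR1A stood at 187, 369 and 45.9 CPM, PRKAR2B at 26.4, 126 and 46.6, PRKAR2A at 146, 37.6 and 59.9, and the catalytic subunit PRKACB at 60.5, 27.6 and 149. Of the 3 genes for protein kinase A inhibitor peptides, 1 of 2 was lower at day 3 over day 0 and 2 of 3 higher at day 5 over day 3, with PKIA at 29.9, 7.59 and 154 CPM, PKIB at 7.92, 0.214 and 94.5 and PKIG at 83.0, 45.4 and 61.6. The cGMP-dependent kinases were both higher at day 3, and at day 5 PRKG1 was higher still and PRKG2 lower, at 43.3, 104 and 436 and at 6.83, 41.2 and 1.47 CPM. PRKG1 has 1294629 bases of intron, and its day 5 over day 3 log2 ratio of 2.06 lay below the 6.004 median of the class over 500 kb. Of 14 anchors and partners of PDEs and protein kinase A, 6 were higher and 1 lower of 11 at day 3 over day 0, and 4 higher and 2 lower of 13 at day 5 over day 3. RACK1, a scaffold protein that binds PDE4D, stood at 1185, 427 and 180 CPM, AKAP13 at 46.9, 129 and 426, AKAP9 at 71.2, 372 and 260 and AKAP6 at 8.001, 1.23 and 369. AKAP6 has 488661 bases of intron and RACK1 5198, and their day 5 over day 3 log2 ratios were 8.23 and -1.25. The median log2 ratios of the 6 lists at day 3 over day 0 were 2.12 for adenylyl cyclases, 3.36 for guanylyl cyclases, -0.26 for protein kinase A and EPAC, -1.98 for its inhibitors, 1.93 for the cGMP kinases and 1.23 for anchors, over members with at least 3 UMIs in 1 library, beside 1.36 for all such genes. At day 5 over day 3 they were 2.51, -0.89, 0.04, 4.34, -1.37 and -0.40 in that order, beside 0.08 for all such genes.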

How the data were processed

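The deposited values are UMI counts per gene and barcode, not normalized, per the file headers and the submitters' processing notes, which name Cell Ranger 4.0.0 and hg38 (GRCh38). The day 0 header gives 3.0.1, the day 3 header cellranger-4.0.0 and the day 5 header Cell Ranger 4. The counting of introns and the use of strand are not given in the sources used here. Day 0 and day 3 held 17504 and 11488 barcodes, and day 5 held 2037119, of which 9304 with at least 2155 UMIs were called as cells (a fraction of 1/10 of the UMIs at percentile 99 among the 10000 largest barcodes). Cells needed 500 UMIs, 300 genes and at most 20% mitochondrial UMIs. No doublet caller was run and doublets were kept. UMIs were summed per library over 32732 shared genes and divided by their total to give CPM, with exact Poisson 95% intervals, in Python 3.11.15 with numpy 2.4.6 and scipy 1.17.1. A library under 3 UMIs was set at 3 UMIs in fitted log2 ratios.

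Each library was clustered alone without the 21 catalytic PDE genes (2000 variable genes, 30 components, 15 neighbours, leidenalg 0.10.2 at resolution 0.5). Alternative scalings used TMM (edgeR 4.0.16) and the median of ratios (DESeq2 1.42.0) in R 4.3.3, for scaling only. On simulated counts of 32732 genes the calling rule recovered 50 of 50 genes at 3-fold and 0 of 50 at 1.5-fold in each comparison, and called 0 of 32532 unchanged genes. This says nothing of false calls from variation between libraries, as each group had 1. The members, gene lists, markers and alternatives were chosen with earlier results of these data known. Genes named are the 10 members, other catalytic PDE genes at 10 CPM or more in 1 library, up to 4 members of each pathway list by their highest CPM, and the 3 genes most like the member with the highest CPM. Gene spans and introns come from GENCODE 29 (GRCh38), where total intron length is the gene span minus the union of its exons, and promoter windows from RefSeq (GRCh38.p14).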

Additional observations from a re-analysis of the deposited data

Results flagged for a closer look

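Outside the cells, the day 5 library held 50562 barcodes of at least 500 and under 1000 UMIs that entered no comparison of days, and UMIs of all 10 members were found in them above the 3-count limit. Their level in these barcodes was 600.2 CPM for PDE10A, 516 for PDE3A, 287 for PDE4B, 263 for PDE4D, 79.9 for PDE7A, 60.6 for PDE1A, 37.7 for PDE1C, 37.2 for PDE8A, 2.77 for PDE4A and 1.24 for PDE7B. For 9 of the members this was under the level in day 5 cells by more than 2-fold, and for PDE4A it was close to it (3.22 CPM in cells). With 1 library per group there was no group in which a single sample could stand apart, and no difference between groups could be tested.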

How the results depend on the processing

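No paired analysis was possible because each group is 1 library and the labels give no replicate numbers; for the same reason no replicate could be left out. Of 30 member calls, 30 held under every cell filter, thinning, mean per-cell CPM, totals without mitochondrial and ribosomal protein genes, and subtraction of the day 5 low-barcode profile. That subtraction could not take a higher call at day 5 away, since the members called higher were lower in the profile than in the cells. With TMM and with the median of ratios, 1 member was lower at day 3 than day 0 instead of 0 (PDE4A at log2 -1.70 and -1.66), PDE8A lost its call (0.65 and 0.68), and the split over all genes went from 66.3% higher to 23.8% and 24.9% (1519 and 1582 genes higher instead of 3927, 4863 and 4759 lower instead of 1996). At day 5 over day 0 that split went from 65.4% to 43.1% and 43.2% (5233 and 5217 lower instead of 3142). With totals over genes of 100 kb of intron or more, 1 member was lower at day 3 than day 0 and 2 at day 5 than day 0, PDE7A and PDE8A reversed at day 5 over day 3 (both -0.53), PDE1C became lower there (-2.11), PDE8A lost its call at day 5 over day 0 (0.68), where PDE7B reversed (-2.15), and the split was 23.2% at day 5 over day 3 (55.9% before; 10255 lower instead of 3627) and 30.8% at day 5 over day 0 (8732 lower). The median gene at day 3 over day 0 moved from 0.81 to -0.39 with TMM. The PDE4D share was 13.1% at day 3 with the strict filter (13.9% before), 1.92% at day 0 and 14.6% at day 3 by mean per-cell CPM, 1.82% at day 0 after thinning (2.19% before), and 15.4% and 10.9% at day 5 in clusters with and without neuron markers (12.05% in all). A ratio of at least 3 ended the calls of PDE7A and PDE8A at day 5 over day 3, and a limit of 1 CPM or none added PDE1A at day 3. The PDE ratio of clusters with neuron markers to the others was 0.397 with 9 or more markers and 0.613 at resolution 1, alternatives added after the data were seen. The causes were not tested. Depth limits day 3 most, where 3 UMIs are 0.160 CPM, against 0.0122 at day 0 and 0.0589 at day 5.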
